A study of Mus musculus with 20 samples.

Results

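The genes described here are 10 members of the glycolytic pathway: the glucose transporters Slc2a1 and Slc2a3, the hexokinases Hk1 and Hk2, the phosphofructokinases Pfkl, Pfkm and Pfkp, the aldolase Aldoa, the enolase Eno1 and the lactate dehydrogenase Ldhb. They were taken by symbol from the gene tables, where 10 of 10 were found among 23361 entries, and they were followed through the conversion of mouse embryonic stem cells into epiblast stem cells. In GRCm38 with GENCODE M21 all are protein-coding: Slc2a1 at chr4:119108711-119137983, Slc2a3 at chr6:122727809-122801640, Hk1 at chr10:62268855-62379908, Hk2 at chr6:82725025-82774454, Pfkm at chr15:98092589-98132451 and Eno1 at chr4:150236721-150248879, with Pfkl, Pfkp, Aldoa and Ldhb placed where they are described. Polyadenylated RNA was sequenced from PGK, a female line, and E14, a male line, in 2 differentiation experiments called diff2 and diff3. Day 0 cells of both lines were in 2i, a serum-free medium with inhibitors that holds them in the naive state. The other groups of both lines had been moved to N2B27 medium with activin A and Fgf2 on fibronectin and were taken at day 4, at day 10, between days 19 and 23 and between days 27 and 30. These 5 stages in 2 lines gave 10 groups of 2 libraries, 1 from each experiment. With 1 line per sex, effects of sex and of line cannot be told apart. Nothing in the labels says that libraries of a group came from separate thaws or clones, so p-values measure the spread between these samples alone.

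Glycolysis turns glucose into pyruvate, with glucose entering through membrane transporters of the Slc2a family. Several steps can be carried out by more than 1 gene product: hexokinases trap glucose as glucose 6-phosphate, phosphofructokinases commit it to the pathway as tetramers of the liver, muscle and platelet types, and lactate dehydrogenase tetramers of the A and B subunits interconvert pyruvate and lactate. Naive embryonic stem cells are known to use both respiration and glycolysis, whereas epiblast stem cells are known for a strongly glycolytic metabolism.

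Depth ran from 2020254 to 26936415 counts per library. E14 diff3 was sequenced least at days 0 and 4, with 3376500 and 2020254 counts, so that 3 counts equal 0.888 and 1.48 counts per 1000000 (CPM) in these shallow libraries, against 0.111 to 0.253 CPM in the others. The E14 diff3 library of day 0 had a count for only 10401 genes, against 12837 in the shallower library of day 4 and 13349 to 16699 in the others. Low values in it are thus less certain than its depth alone implies. The diff2 libraries of days 0, 4 and 10 in both lines, 6 in all, have an extra code in the title, so at those stages the code and the experiment cannot be told apart. The labelled cell states were visible in their markers: 10 naive markers summed to 4326 to 6289.9 CPM in the day 0 libraries and to 102 to 414 CPM at day 4, and 10 primed markers to 89.7 to 194 at day 0 and 1800.1 to 3205 at day 4. Markers of other cells moved as well. The sum of 6 endoderm markers was 2.37 to 16.1 CPM at day 0 and 305 to 400.0 at days 27 to 30, and that of 7 fibroblast markers 0 to 16.6 and 74.4 to 232 CPM, with Twist2 and Dcn at 0 in both lines at day 0. Their part in the results that follow was not tested, and in bulk samples fewer cells of a type and less RNA per cell cannot be told apart.

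Between day 0 and day 4, 5 of the 10 genes fell in PGK and 3 of 10 fell in E14, and no member was called higher in either line by edgeR. Genes were called with edgeR's quasi-likelihood test at an adjusted p under 0.05 over all genes tested, by which 14.8% of genes were called in PGK and 9.56% in E14. Hk1, Pfkp and Ldhb fell in both lines, and Hk2 and Slc2a3 in PGK. Pfkl in E14 lay just outside the threshold and was called higher in 8 of 13 alternative settings. The median log2 fold change of the members was -0.97 in PGK and -0.13 in E14, against -0.01 and 0.15 over all genes.

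At days 27 to 30 against day 0, Hk1, Pfkp and Ldhb were lower in both lines and Slc2a1 was higher in PGK. That made 4 of 10 members called in PGK, where 25.1% of genes were called, and 3 of 10 in E14, where 13.7% were. The members' median log2 fold change was -0.66 in PGK and -0.32 in E14, against -0.06 and 0.19 over all genes.

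**Figure D1:**
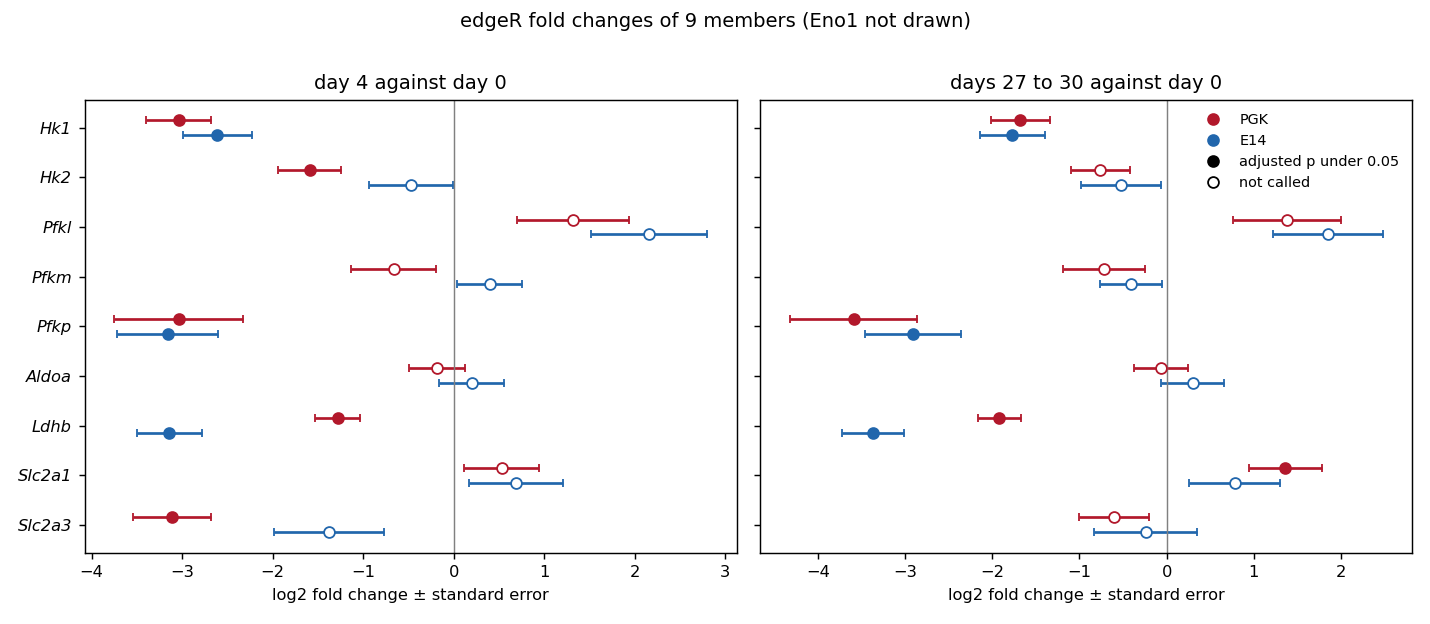
Log2 fold changes on the x axis with standard errors as bars, for 9 members, in PGK (red) and E14 (blue), with filled points where the adjusted p is under 0.05. Hk1, Pfkp and Ldhb lie left of 0 with filled points in both lines and both comparisons, while the points of Pfkl lie to the right, between 1.32 and 2.16, and are open.

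After day 4 few members passed the test. From day 4 to day 10, 1 member, Slc2a3, rose in PGK, where 1.51% of genes were called, and none was called in E14, where 0.186% of genes were. By an unadjusted p under 0.05, 5 members passed in PGK and 2 in E14 at that step, and DESeq2 called 1 and 0. Over all genes, 1880 of 15284 passed unadjusted in PGK and 1250 of 14501 in E14, and DESeq2 called 848 and 512. From day 10 to days 19 to 23 and from then to days 27 to 30, edgeR called 0% of genes and no member in PGK, with 208 and 231 genes and 0 members at an unadjusted p under 0.05. In E14 it likewise called 0% of genes and no member at these steps, with 938 and 106 genes at an unadjusted p under 0.05, of which 1 and 0 were members. DESeq2 called no member at any of these 4 late steps, and 5, 4, 284 and 4 genes in the order given.

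Slc2a3, the high-affinity glucose transporter GLUT3, had its lowest mean level at day 4 in both lines. In PGK it measured 2043 and 1768 CPM at day 0 in diff2 and diff3, 343 and 120.0 at day 4, 898 and 1295 at day 10, 1256 and 1047 at days 19 to 23, and 1452 and 1210.3 at days 27 to 30. Day 4 stood below every other PGK stage and overlapped none. It fell by 3.11 on the log2 scale at day 4 (SE 0.43, edgeR adjusted p = 0.00107) and rose by 2.22 from day 4 to day 10 (SE 0.41, edgeR adjusted p = 0.0321). The rise was lost without the diff3 library of day 10 (1.92, edgeR adjusted p = 0.171) and in a joint fit of all 20 libraries (2.24, edgeR adjusted p = 0.0834). At days 27 to 30 the log2 difference from day 0 was -0.60 (SE 0.40, edgeR adjusted p = 0.294).

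In E14 the 2 experiments parted at day 4. Slc2a3 measured 2343 and 2671 CPM at day 0, 362 and 1523 at day 4, 3794 and 1661 at day 10, 3168 and 4388 at days 19 to 23, and 1494 and 2764 at days 27 to 30. Both day 4 values lay below both day 0 values, and the later stages overlapped day 0 or lay above it. The log2 difference at day 4 was -1.38 (SE 0.61, edgeR adjusted p = 0.189), with -2.69 in diff2 and -0.81 in diff3, whose day 4 library is shallow.

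Slc2a1, the widely expressed transporter GLUT1, went from 185 and 119 CPM at day 0 in PGK to 290.2 and 169 at day 4, 656 and 258 at day 10, 387 and 370.0 at days 19 to 23, and 483 and 341 at days 27 to 30. Its day 0 values lay below those of the last stage in both experiments. The increase to days 27 to 30 was 1.36 on the log2 scale (SE 0.42, edgeR adjusted p = 0.0392), with 1.38 in diff2 and 1.51 in diff3. It was lost on leaving out any 1 of the 4 libraries compared, PGK diff2 or diff3 at day 0 or at days 27 to 30 (edgeR adjusted p from 0.057 to 0.169), and without the filter on low counts (edgeR adjusted p = 0.0787) or in the joint fit (edgeR adjusted p = 0.0613).

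In E14, Slc2a1 measured 264 and 397 CPM at day 0, 397 and 638 at day 4, 2218 and 744 at day 10, 952 and 1516 at days 19 to 23, and 374 and 756 at days 27 to 30. Its mean was highest at day 10, at 1481 CPM, and next at days 19 to 23, at 1234 CPM. The height at day 10 rests on the diff2 library, since the diff3 value, 744 CPM, lay below the 756 CPM of diff3 at the last stage. The values of the last stage overlapped day 0. The log2 difference between days 27 to 30 and day 0 was 0.78 (SE 0.52, edgeR adjusted p = 0.343).

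As CPM per kilobase of exon, the scale used to set one gene against another, Slc2a3 made up 86% ± 2.48 (SD, n = 2) of the 2 transporters at day 0 in PGK and 78.8% ± 3.23 in E14. At day 4 its share was 31% ± 7.63 and 42.1% ± 16.3, and at days 27 to 30 it was 61.2% ± 2.75 and 64.9% ± 1.41. Slc2a1 was the more abundant in both PGK libraries and the E14 diff2 library of day 4, and in the diff2 library of either line at day 10. The summed level of both transporters per length was 306 ± 40 CPM per kilobase at day 0 in PGK and 97.4 ± 46.3 at day 4, and 440.3 ± 58.7 and 278 ± 162 in E14, with the highest mean, 873 ± 233, in E14 at days 19 to 23.

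**Figure D2:**
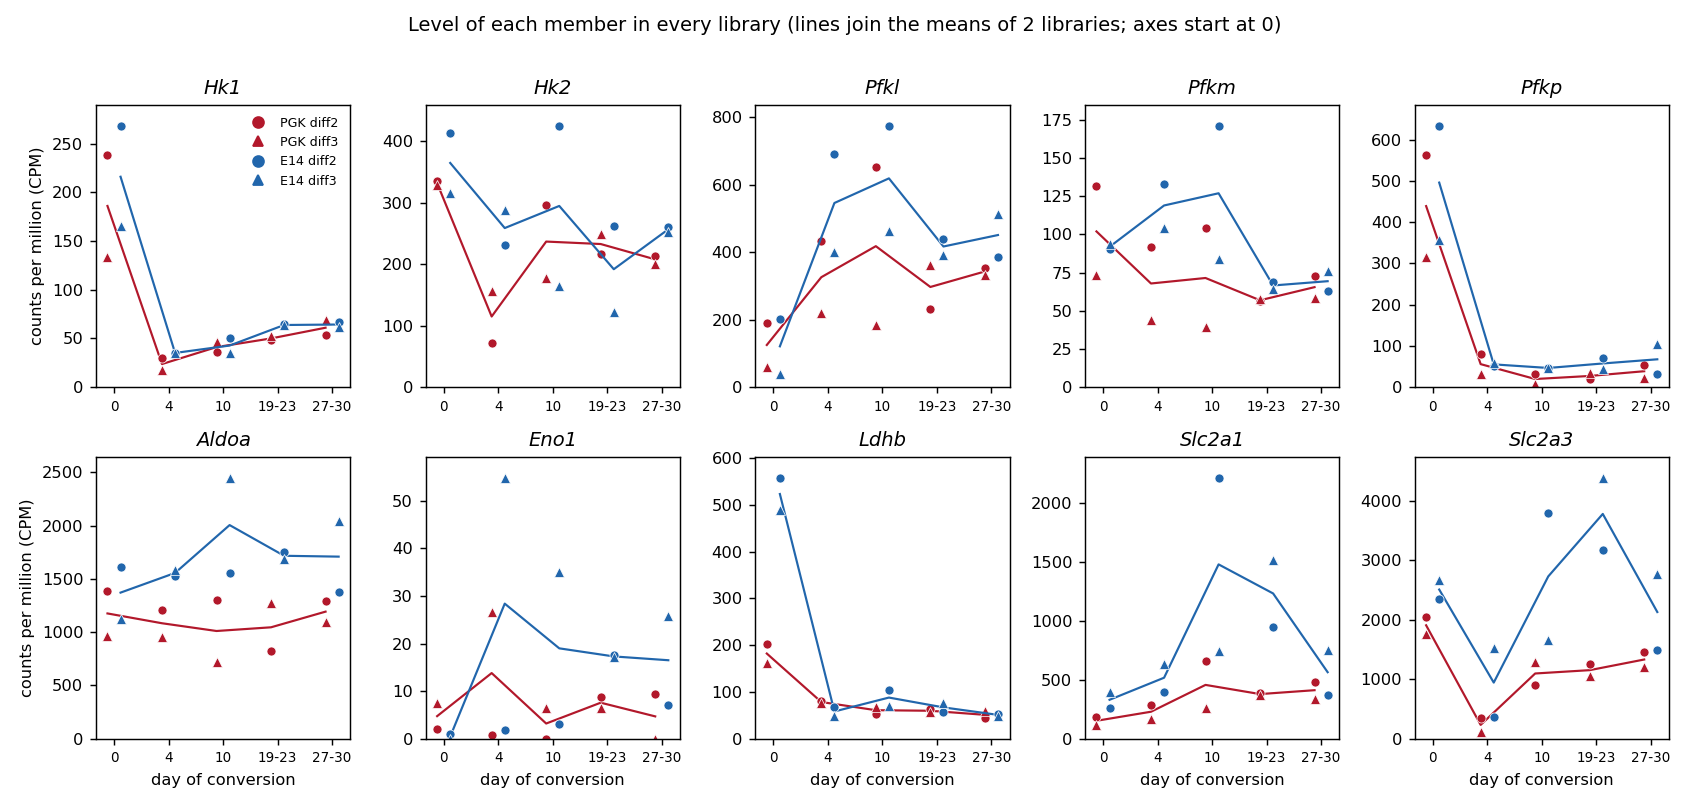
CPM of each of the 10 members on the y axis, on a linear scale from 0, against the day on the x axis, with 1 point per library and lines through the means of 2 libraries. Hk1, Pfkp and Ldhb stand highest at day 0 in both lines, Slc2a3 dips at day 4, and Slc2a1 peaks at 2218 CPM in E14 diff2 at day 10.

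Hk1, the hexokinase that most tissues express and that binds the outer mitochondrial membrane, fell at day 4 in both lines. In PGK it measured 238 and 134 CPM at day 0, 29.5 and 17.9 at day 4, 36.1 and 46.2 at day 10, 47.9 and 52.1 at days 19 to 23, and 53.1 and 69 at days 27 to 30. In E14 the values were 268 and 165 CPM at day 0, 35 and 35.1 at day 4, 50.4 and 34.9 at day 10, 64.4 and 63.3 at days 19 to 23, and 66.4 and 62.2 at days 27 to 30. Each of the 4 day 0 libraries lay above each later library of either line, among which the highest was 69 CPM.

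The log2 change of Hk1 at day 4 was -3.04 in PGK (SE 0.36, edgeR adjusted p = 4.48e-04) and -2.61 in E14 (SE 0.38, edgeR adjusted p = 0.00238). At days 27 to 30 it was -1.68 (SE 0.34, edgeR adjusted p = 0.00555) and -1.77 (SE 0.37, edgeR adjusted p = 0.0114). The last of these was lost without the diff2 or the diff3 library of that stage (edgeR adjusted p = 0.0912 and 0.119). The level at days 27 to 30 was above that of day 4 in every library.

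Hk2, the inducible hexokinase of muscle, embryonic and tumour cells, fell at day 4 in PGK, from 335 and 329 CPM to 72.6 and 157 CPM, by 1.59 on the log2 scale (SE 0.35, edgeR adjusted p = 0.0125). Its PGK values were 296 and 178 CPM at day 10, 217 and 249 at days 19 to 23, and 214 and 201 at days 27 to 30, which are below day 0 and above day 4. The log2 difference at the last stage was -0.76 (SE 0.34, edgeR adjusted p = 0.132).

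In E14, Hk2 measured 414 and 316 CPM at day 0, 231 and 288 at day 4, 425 and 165 at day 10, 262 and 122 at days 19 to 23, and 260.5 and 253 at days 27 to 30. No step of Hk2 was called in E14, where the log2 difference at day 4 was -0.47 (SE 0.46, edgeR adjusted p = 0.568). The difference between lines of the change to day 4 was -1.09 (SE 0.61, edgeR adjusted p = 0.753).

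Hexokinase transcripts per length were mostly Hk2 throughout. Its share was 72.1% ± 7.72 (SD, n = 2) at day 0 in PGK and 70.9% ± 3.26 in E14, 85% ± 10.6 and 91.2% ± 1.32 at day 4, and 73.1% ± 5.51 and 79.7% ± 1.48 at days 27 to 30. Hk1 held 27.6% ± 7.81 and 28.9% ± 3.16 at day 0 and 15% ± 2.26 and 14% ± 0.112 at the end. The hexokinase domain gene Hkdc1, at 0.731 and 1.03 CPM at day 0 in PGK, measured 22.4 and 35.7 at days 27 to 30 there, a share of 11.8% ± 3.43. Hk3 was at 0 to 0.221 CPM in every library.

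Phosphofructokinase transcripts passed from one paralogue to another. The platelet type, Pfkp, measured 562 and 315 CPM at day 0 in PGK, 80.4 and 31.2 at day 4, 31.7 and 7.84 at day 10, 19.2 and 35.1 at days 19 to 23, and 54.5 and 22.7 at days 27 to 30. The E14 values were 633 and 358 CPM at day 0, 52.1 and 58.4 at day 4, 45.8 and 47.1 at day 10, 71.7 and 43.2 at days 19 to 23, and 31.3 and 104 at days 27 to 30. The day 0 libraries, at 315 CPM or more, stood apart from all the others, at 104 CPM or less.

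Pfkp fell by 3.04 on the log2 scale at day 4 in PGK (SE 0.71, edgeR adjusted p = 0.0165) and by 3.16 in E14 (SE 0.56, edgeR adjusted p = 0.00691). At days 27 to 30 the change was -3.59 in PGK (SE 0.73, edgeR adjusted p = 0.00565) and -2.91 in E14 (SE 0.55, edgeR adjusted p = 0.00746). Within experiments the change to days 27 to 30 was -3.35 in diff2 and -3.76 in diff3 in PGK, and -4.32 and -1.78 in E14. Both experiments of both lines thus moved downward. The day 4 call in PGK was lost without the diff2 library of day 0 (edgeR adjusted p = 0.103), the diff3 library of day 0 (0.051) or the diff3 library of day 4 (0.12), and without the low-count filter (0.129). In E14 it was lost without the diff2 (0.0734) or the diff3 library of day 4 (0.0787) or without the coded libraries (0.0813), and the PGK call at days 27 to 30 without the diff3 library of that stage (0.0593) or without the filter (0.0629). The log2 change in these settings lay between -3.57 and -2.50.

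Pfkl, the liver type, had higher levels after day 0, with a large gap between experiments. In PGK it measured 191 and 59.3 CPM at day 0, 432 and 219.5 at day 4, 653 and 183 at day 10, 232 and 362 at days 19 to 23, and 354 and 333 at days 27 to 30. In E14 it measured 202 and 39.7 CPM at day 0, 691 and 400.4 at day 4, 774 and 463 at day 10, 440.4 and 393 at days 19 to 23, and 387 and 514 at days 27 to 30. Each day 0 library lay below every later library of its own experiment, but the diff2 library of day 0 in PGK, at 191 CPM, lay above the diff3 library of day 10, at 183 CPM.

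The log2 differences of Pfkl were 1.32 at day 4 in PGK (SE 0.62, edgeR adjusted p = 0.189) and 2.16 in E14 (SE 0.64, edgeR adjusted p = 0.0596), and at days 27 to 30 they were 1.38 (SE 0.62, edgeR adjusted p = 0.131) and 1.85 (SE 0.63, edgeR adjusted p = 0.0777). None passed the threshold, although E14 did with DESeq2 (adjusted p = 0.00665 and 0.0197) and with limma on the deposited log2 values (adjusted p = 0.0207 and 0.0272). With the experiment as a replicate block, which pairs the libraries of 1 experiment, the E14 differences were 2.32 at day 4 (edgeR adjusted p = 0.0293) and 2.14 at days 27 to 30 (edgeR adjusted p = 0.0339) and passed it. Within experiments the change to days 27 to 30 was 0.89 in diff2 and 2.48 in diff3 in PGK, and 0.94 and 3.68 in E14. All 4 of these were upward, and larger in diff3. Without the coded libraries the log2 difference of Pfkl at days 27 to 30 was 2.45 in PGK and 3.53 in E14. Day 0 then rested on 1 library per line, of which that of E14 is shallow and had the fewest genes detected. A term for the code in the fit gave 2.35 (edgeR adjusted p = 2.18e-04) and 2.82 (edgeR adjusted p = 0.00853). No library after day 10 is coded, so this term sets day 0 at the level of uncoded diff3 libraries. It is therefore not separate from leaving the coded libraries out.

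Pfkm, the muscle type, was the steadiest of the 3. It measured 132 and 73.3 CPM at day 0 in PGK and 72.5 and 58.5 at days 27 to 30, and 90.3 and 93.6 CPM and 63.1 and 75.8 CPM in E14. Over all libraries it lay between 39.1 and 171 CPM. No comparison called it with the fit used here, with log2 differences at days 27 to 30 of -0.72 in PGK (SE 0.47, edgeR adjusted p = 0.283) and -0.41 in E14 (SE 0.36, edgeR adjusted p = 0.486). It was called lower at day 4 in PGK with a term for the code (-0.69, edgeR adjusted p = 0.0244) and in PGK against E14 at day 4 without the coded libraries (-1.24, edgeR adjusted p = 0.0232).

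Per length, Pfkp and Pfkm each held a large part of the phosphofructokinase transcripts at day 0, and Pfkl most of them afterwards. The exon lengths used were 13.4 kilobases for Pfkp, 6.67 for Pfkl and 3.34 for Pfkm, and the shares depend on them. In CPM, without this division, Pfkp had the highest mean of the 3 at day 0. It was 439 against 125 for Pfkl and 102 for Pfkm in PGK, and 496 against 121 and 91.9 in E14. The share of Pfkp was 40.7% ± 3.6 (SD, n = 2) at day 0 in PGK and 44.6% ± 0.824 in E14, and 3.81% ± 1.91 and 5.07% ± 3 at days 27 to 30. The share of Pfkl was 21.2% ± 6.8 and 19.4% ± 13.5 at day 0, 66.9% ± 1.33 and 66.5% ± 5.33 at day 4, and 69.7% ± 3.44 and 72.4% ± 1.05 at days 27 to 30. The summed level of the 3 genes was 82.1 ± 39.3 CPM per kilobase at day 0 in PGK and 73.9 ± 6.95 at days 27 to 30, and 82.6 ± 31 and 93.3 ± 20 in E14, differences smaller than the day 0 SD. This sum depends on the same exon lengths.

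**Figure D3:**
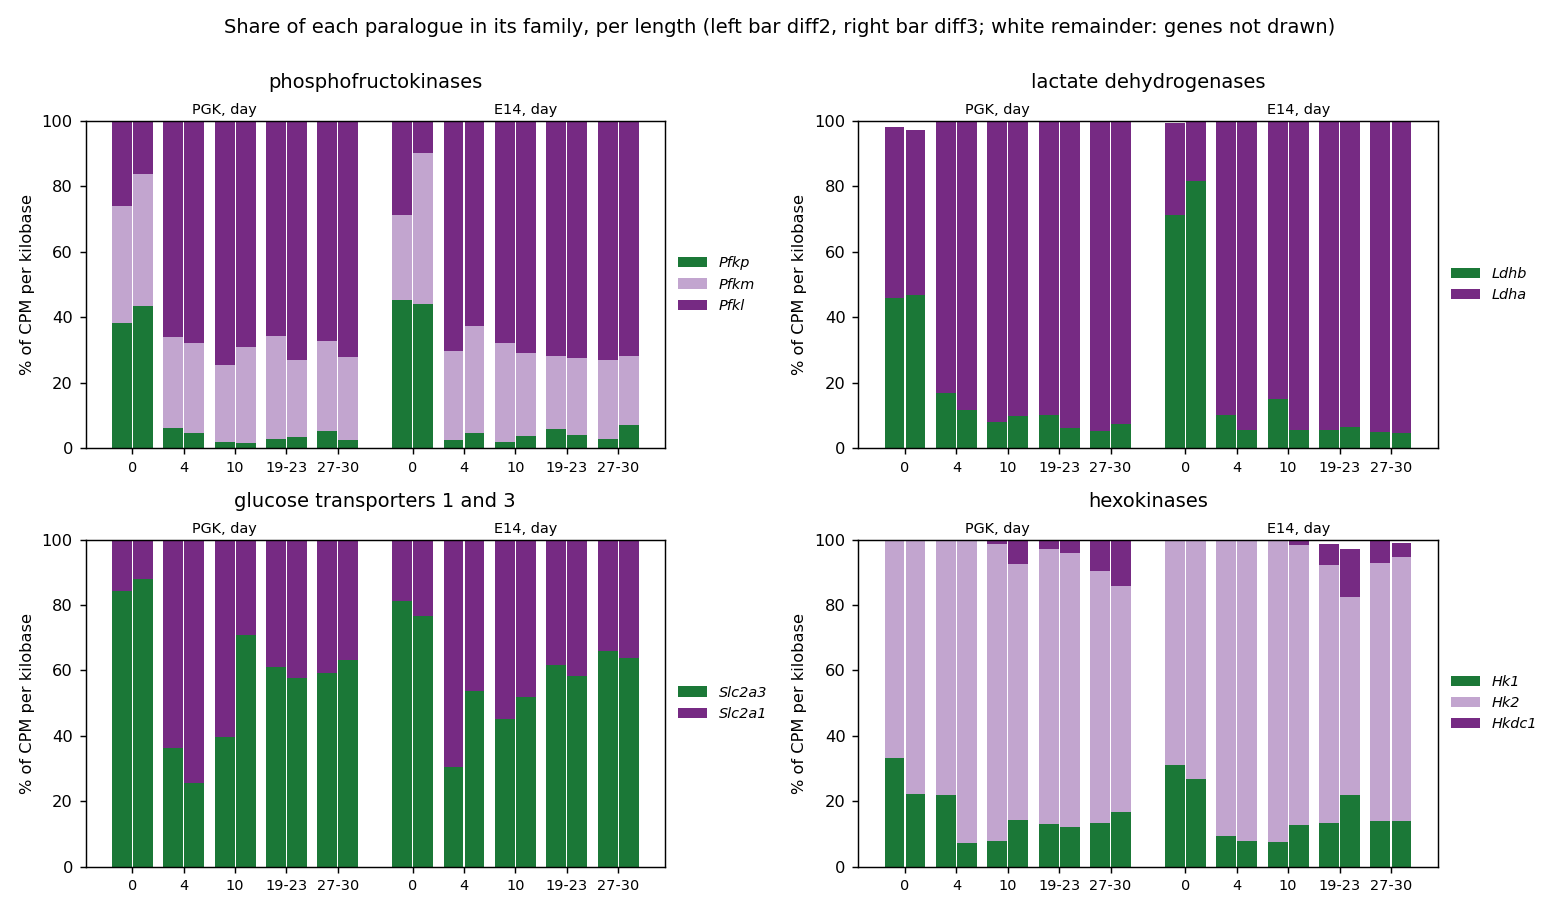
Share of each paralogue in the summed CPM per kilobase of its family, in % on the y axis from 0 to 100, for every library, by day and line on the x axis. Pfkp (green) shrinks from about 40.7% to 3.81% and Ldhb (green) from 46.3% to 6.32% in PGK, both mostly by day 4. Slc2a3 (green) has its lowest mean share at day 4 in both lines, while in E14 diff3 it is 53.6% at day 4 and 51.9% at day 10.

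The promoters of Pfkp and Pfkl, the pair whose ratio turned over in both lines, are shown as the 250 bases before the RefSeq gene start (GRCm38.p6, minus strand for both, printed 5′ to 3′). They were searched on both strands for ACGTG, the core of hypoxia response elements, GCGTG, its variant, the E-box CACGTG, which holds ACGTG on either strand and so counts as 2 matches of it, and AAGGTCA, an estrogen-related receptor site. Capitals mark matches. The Pfkp window is chr13:6648772-6649021 and the Pfkl window chr10:78009808-78010057, and the gene bodies in GENCODE M21 are chr13:6579768-6648777 and chr10:77986947-78010083, both protein-coding on the minus strand. The Pfkl window lies inside the GENCODE gene, which begins upstream of this RefSeq start.
Pfkp: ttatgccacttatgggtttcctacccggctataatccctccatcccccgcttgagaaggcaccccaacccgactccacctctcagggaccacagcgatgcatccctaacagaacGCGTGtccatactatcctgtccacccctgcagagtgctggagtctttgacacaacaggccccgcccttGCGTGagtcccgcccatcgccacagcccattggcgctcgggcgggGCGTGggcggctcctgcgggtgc
Pfkl: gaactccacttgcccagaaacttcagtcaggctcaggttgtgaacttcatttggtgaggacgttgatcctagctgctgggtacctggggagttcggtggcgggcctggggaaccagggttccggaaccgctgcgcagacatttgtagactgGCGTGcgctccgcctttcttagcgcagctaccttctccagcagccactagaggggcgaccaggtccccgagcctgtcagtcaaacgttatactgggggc
The Pfkp window holds 3 matches of GCGTG and the Pfkl window 1, and neither holds the other motifs. GCGTG is found in 28.2% of 32851 promoter windows of this length, ACGTG in 16.6%, CACGTG in 6.02% and AAGGTCA in 4.08%. Of the 9 members with an entry, 7 hold GCGTG in at least 1 window, 4 ACGTG (Hk2, Pfkm, Aldoa and Slc2a1), 1 CACGTG (Pfkm) and 1 AAGGTCA (Eno1), with up to 4 windows per gene. These counts are per gene and the shares above are per window, so they cannot be set against each other. A match describes letters in a window and not a bound site.

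Aldoa (chr7:126795234-126800751), the aldolase that splits fructose bisphosphate, had the highest mean of the members per length in each of the 10 groups, at 404 ± 104 CPM per kilobase (SD, n = 2) at day 0 in PGK and 471 ± 119 in E14. In E14 its libraries overlapped those of Slc2a1 at day 10 and those of Slc2a3 at days 19 to 23. Its levels ran from 716 to 2449 CPM over all libraries, the narrowest fold range of the members at 3.42. In PGK the day 0 libraries measured 1389 and 961 CPM and those of days 27 to 30 1290.1 and 1093 CPM, and in E14 1615 and 1126 CPM and 1373 and 2043 CPM. The groups overlapped, and the log2 differences were -0.06 in PGK (SE 0.31, edgeR adjusted p = 0.907) and 0.30 in E14 (SE 0.36, edgeR adjusted p = 0.617). Aldoc made up 0.391% to 2.94% of aldolase transcripts per length.

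Eno1, the enolase of most tissues, could not be followed reliably. It had 0 to 895 counts per library and 3 libraries at 0, those of PGK diff2 at day 10, PGK diff3 at days 27 to 30 and E14 diff3 at day 0. At day 4 it measured 0.842 and 26.7 CPM in PGK and 1.84 and 54.9 CPM in E14. Near-identical copies of this gene exist in the genome, and whether the counting split reads among them is not given in the sources used here, so its values are uncertain. Its log2 differences had standard errors of 1.41 to 2.07 within lines. None was called by edgeR with all libraries, although both E14 differences from day 0 were without the coded libraries (adjusted p = 0.00669 and 0.0133), where the 1 remaining day 0 library is at 0. DESeq2 called both E14 differences from day 0 (5.85 at day 4, adjusted p = 0.00104, and 4.99 at days 27 to 30, adjusted p = 0.00562). The muscle enolase Eno3, by contrast, rose in PGK at days 27 to 30 by 3.22 (SE 0.41, edgeR adjusted p = 0.000454), from 2.92 and 3.65 CPM to 39.3 and 25.9 CPM (35.9 and 21.1 CPM at day 10). The sum of 4 muscle markers in PGK was 2.34 to 5.28 CPM at day 0, 10.8 to 39.1 at day 10 and 5.14 to 9.72 at days 27 to 30, and their part in the Eno3 level was not tested. Eno2, the neuronal type, measured 19.8 and 2.99 CPM at day 0 and 8.67 and 7.64 at days 27 to 30 in PGK.

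Ldhb, the heart-type subunit of lactate dehydrogenase, fell in both lines. In PGK it measured 203 and 161 CPM at day 0, 80.6 and 76.3 at day 4, 53.4 and 68.4 at day 10, 63.4 and 56 at days 19 to 23, and 43.7 and 58.3 at days 27 to 30. In E14 the values were 558 and 489 CPM at day 0, 67.4 and 49 at day 4, 105 and 70.6 at day 10, 57.5 and 76.4 at days 19 to 23, and 52.4 and 49.4 at days 27 to 30. Day 0 stood above every later library in both lines, E14 above PGK, and the lines overlapped at the last stage.

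The change of Ldhb at day 4 was -1.28 in PGK (SE 0.25, edgeR adjusted p = 0.00671) and -3.14 in E14 (SE 0.36, edgeR adjusted p = 7.94e-04), and at days 27 to 30 it was -1.92 (SE 0.25, edgeR adjusted p = 5.20e-04) and -3.37 (SE 0.36, edgeR adjusted p = 4.21e-04). These 4 calls held in every alternative run. The experiments gave -2.20 and -1.46 in PGK at days 27 to 30, and -3.40 and -3.29 in E14.

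Ldha, the muscle-type subunit and no member here, moved the other way. It measured 489 and 366 CPM at day 0 and 1688 and 1522 at days 27 to 30 in PGK, and 462 and 233 CPM and 2104 and 2187 CPM in E14. The rise was 1.83 in PGK (SE 0.27, edgeR adjusted p = 0.000925) and 2.60 in E14 (SE 0.46, edgeR adjusted p = 0.00554). Per length, Ldhb held 46.3% ± 0.706 (SD, n = 2) of lactate dehydrogenase transcripts at day 0 in PGK and 76.4% ± 7.26 in E14, 14.4% ± 3.63 and 7.73% ± 3.27 at day 4, and 6.32% ± 1.63 and 4.77% ± 0.318 at days 27 to 30.

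The promoters of this pair, which moved in opposite directions, are given in the same way: the Ldhb window is chr6:142507958-142508207 on the minus strand, the first of 2 Ldha windows chr7:46845554-46845803 on the plus strand. The latter lies inside the GENCODE gene, chr7:46841475-46855627, and the Ldhb window just before its gene, chr6:142490249-142507957.
Ldhb: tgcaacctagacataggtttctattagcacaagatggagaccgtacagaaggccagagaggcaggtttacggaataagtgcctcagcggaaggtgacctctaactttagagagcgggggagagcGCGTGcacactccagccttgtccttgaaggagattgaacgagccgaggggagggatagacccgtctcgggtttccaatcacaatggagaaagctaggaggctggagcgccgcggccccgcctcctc
Ldha: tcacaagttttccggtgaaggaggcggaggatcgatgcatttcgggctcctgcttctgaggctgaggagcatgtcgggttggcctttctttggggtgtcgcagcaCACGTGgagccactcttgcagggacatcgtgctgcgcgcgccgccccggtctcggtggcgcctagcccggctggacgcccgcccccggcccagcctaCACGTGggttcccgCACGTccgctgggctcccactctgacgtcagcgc
The Ldhb window holds 1 match of GCGTG. The first Ldha window holds 2 of the E-box CACGTG, and with them 5 of ACGTG counted on both strands, and none of GCGTG or AAGGTCA. The second Ldha window, chr7:46846832-46847081, is not printed. It holds 1 match of GCGTG, as the Ldhb window does, and none of the other motifs.

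The 5 ratios between paralogues were compared over the 4 day 0 and the 4 day 27 to 30 libraries of both lines, as log2 ratios of CPM + 0.5. The mean ratio of Pfkp to Pfkl went from 2.19 ± 0.75 (SD) to -3.11 ± 0.73, and that of Pfkm to Pfkl from -0.04 ± 1.03 to -2.53 ± 0.20. Ldhb to Ldha went from -0.28 ± 1.14 to -5.18 ± 0.33, Slc2a3 to Slc2a1 from 3.31 ± 0.48 to 1.82 ± 0.17, and Hk2 to Hk1 from 0.84 ± 0.36 to 1.88 ± 0.23. In each of the 5 the groups did not overlap, and the two-sided exact permutation test gave p = 0.0286, the smallest that 70 arrangements allow, and 0.0286 after Benjamini-Hochberg adjustment over the 5 ratios. These arrangements exchange libraries across lines and experiments. Exchanged within the 4 pairs of a line and experiment, the exact test gave p = 0.125 for each ratio, the smallest that 16 arrangements allow, and within lines p = 0.0556, the smallest of 36, so neither design could pass 0.05. Lengths cancel in a change of a ratio. The Hk2 to Hk1 ratio was higher at the end although neither line had a higher Hk2 level than at day 0. The change of the Ldhb to Ldha ratio was -3.75 in PGK alone and -6.05 in E14 alone, and that of Slc2a3 to Slc2a1 -1.97 and -1.02. The ratios were not tested within a line.

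**Figure D4:**
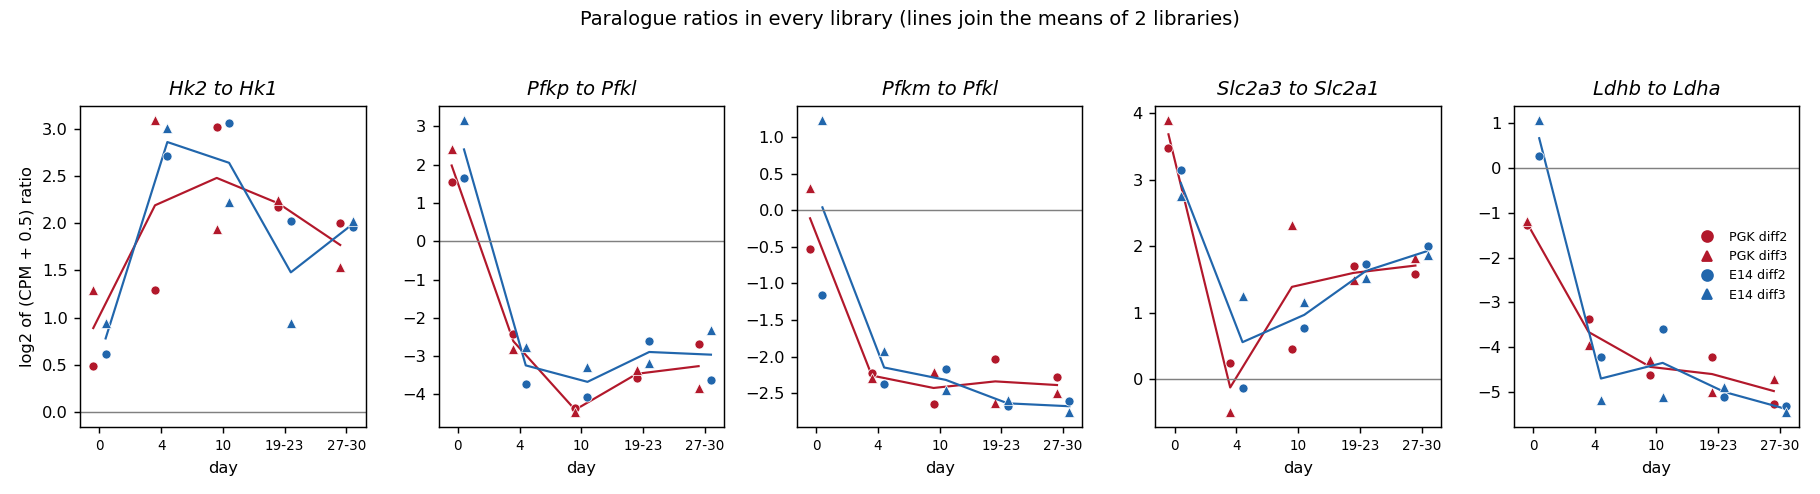
Log2 ratio of each paralogue pair on the y axis against day on the x axis, with 1 point per library and lines through the means of 2. Pfkp to Pfkl crosses 0 by day 4 and ends between -3.84 and -2.31. Slc2a3 to Slc2a1 has its lowest mean at day 4 in both lines and ends between 1.59 and 2.00. In E14 diff3 it is 1.26 at day 4 and 1.16 at day 10.

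Between the lines, Ldhb was the one member called. It was lower in PGK than in E14 at day 0 by 1.46 on the log2 scale (SE 0.28, edgeR adjusted p = 0.0292), in a comparison that called 0.509% of genes. The call was lost without PGK diff2 (adjusted p = 0.101), PGK diff3 (0.176) or E14 diff3 (0.0678) of day 0, and without both shallow libraries (0.0541). No member was called by edgeR between the lines at day 4, where 0.165% of genes were called, at day 10 (0.0636%), at days 19 to 23 (0.0636%) or at days 27 to 30 (0.0572%). At these stages 3, 3, 2 and 0 members had an unadjusted p under 0.05, and DESeq2 called 1 member, Slc2a3, at day 4 and 0 at the other 3 stages. Over all genes, 1054, 579, 715 and 385 of 15732 had such a p, and DESeq2 called 235, 74, 90 and 24.

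The transporters were among the members with unadjusted differences. At days 19 to 23 Slc2a1 was 379 ± 12.2 CPM in PGK and 1234 ± 399 CPM in E14 (SD, n = 2), and Slc2a3 1152 ± 148 and 3778 ± 863 CPM, with no overlap between the lines. The log2 differences, PGK minus E14, were -1.68 (SE 0.51, edgeR adjusted p = 0.706) and -1.68 (SE 0.56, edgeR adjusted p = 0.799). These tests at day 10 and at days 19 to 23, and the differences of the later steps, were added after the levels had been seen.

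The change itself was also compared between lines. No member was called by edgeR in the difference of the change from day 0 to day 4, where 0.0763% of genes were, or to days 27 to 30, where 0.0509% were, and 2 and 1 members had an unadjusted p under 0.05. DESeq2 called 1 member, Ldhb, in each. Over all genes, 1165 and 1006 of 15732 had an unadjusted p under 0.05, and DESeq2 called 204 and 107. For Ldhb the difference, PGK minus E14, was 1.88 at day 4 (SE 0.40, edgeR adjusted p = 0.0865) and 1.49 at days 27 to 30 (SE 0.39, edgeR adjusted p = 0.391). The differences of the steps from day 4 to day 10 (0.0127% of genes called), day 10 to days 19 to 23 (0%) and days 19 to 23 to days 27 to 30 (0%) held no called member by edgeR, with 1, 0 and 0 at an unadjusted p under 0.05 and 0 called by DESeq2. Over all genes, 659, 449 and 177 had such a p, and DESeq2 called 57, 45 and 3.

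Other genes of the pathway were read from lists that were chosen with earlier results of these data known. Of 26 other glycolysis and transport genes tested, 9 rose and 2 fell at days 27 to 30 against day 0 in PGK, and 7 rose and none fell in E14 (14 and 13 with an unadjusted p under 0.05, 12 and 11 called by DESeq2), where 25.1% and 13.7% of all genes were called, with list medians of 0.49 and 1.74 against -0.06 and 0.19 over all genes. Over all genes, 5858 of 15284 and 4266 of 14501 had such a p, and DESeq2 called 5139 and 3597. Besides Ldha and Eno3, the lactate and pyruvate carrier Slc16a1 rose by 1.37 in PGK (SE 0.28, edgeR adjusted p = 0.00653) and 2.73 in E14 (SE 0.58, edgeR adjusted p = 0.0128). Triosephosphate isomerase Tpi1 rose by 1.13 in PGK (SE 0.35, edgeR adjusted p = 0.0393) and 1.62 in E14 (SE 0.37, edgeR adjusted p = 0.0177), and pyruvate kinase Pkm by 0.93 in PGK (SE 0.26, edgeR adjusted p = 0.0266), with 0.92 in E14 (SE 0.31, edgeR adjusted p = 0.0733).

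The steps on either side showed no common course. Phosphoglucose isomerase Gpi1 had log2 differences of -0.38 in PGK (SE 0.28, edgeR adjusted p = 0.34) and -0.75 in E14 (SE 0.32, edgeR adjusted p = 0.15). Phosphoglycerate kinase Pgk1 rose by 1.92 in E14 (SE 0.43, edgeR adjusted p = 0.0166), to 137 and 198 CPM, and measured 5.28 and 20.7 CPM at the same stage in PGK, where the difference from day 0 was -1.39 (SE 0.62, edgeR adjusted p = 0.129). Pgk1 lies on chromosome X, and PGK is the female line and E14 the male line. The part of X chromosome number in these Pgk1 levels was not tested. The mutase Pgam1 rose by 1.92 in E14 (SE 0.55, edgeR adjusted p = 0.0433), with 0.90 in PGK (SE 0.37, edgeR adjusted p = 0.103). Per length at day 0, Pgk1 was at 14.5 CPM per kilobase in PGK and 19.2 in E14, and Pgam1 at 17 and 10.8. Tpi1 was at 97.5 and 91.5. At days 27 to 30 Pgk1 was at 5.79 and 74.6, Pgam1 at 33.5 and 41.6 and Tpi1 at 226 and 286. How reads of Pgk1 and Pgam1 that match elsewhere were counted is not given in the sources used here, so their values are uncertain. Gapdh was at 0.928 to 12.4 CPM, too low for this gene to be used.

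Of 12 genes of pyruvate entry tested in E14, none was called by edgeR at days 27 to 30, where 13.7% of all genes were. There 3 had an unadjusted p under 0.05 and DESeq2 called 3. Over all genes in E14, 4266 of 14501 had such a p and DESeq2 called 3597. Of 13 tested in PGK, 2 rose and 6 fell at days 27 to 30, against 25.1% of all genes called. The pyruvate dehydrogenase subunit Pdha1 fell in PGK by 1.44 (SE 0.21, edgeR adjusted p = 0.00102), and the inhibitory kinase Pdk4 fell by 3.98 (SE 0.86, edgeR adjusted p = 0.00781). The phosphatase Pdp2, which activates the complex, fell by 1.76 (SE 0.39, edgeR adjusted p = 0.00972) and the kinase Pdk3 fell by 1.04 (SE 0.24, edgeR adjusted p = 0.0116). The 2 that rose, named after their values were seen, were the kinase Pdk1 by 1.75 (SE 0.45, edgeR adjusted p = 0.0179), from 32.8 and 31.5 CPM to 141 and 88.5 CPM, and the phosphatase Pdp1 by 1.58 (SE 0.42, edgeR adjusted p = 0.0205), so that kinases and phosphatases moved in both directions. These calls are of PGK, the female line, and a missed call in E14, the male line, does not show that the genes stayed level there. Over the group means of both lines Pdha1 was close to Pfkp (Pearson r 0.978), which fell in both. The part of X chromosome number in these PGK changes was not tested. Of 7 pentose phosphate genes, Rpe fell in PGK by 1.32 (SE 0.35, edgeR adjusted p = 0.0209), where 25.1% of all genes were called. In E14, where 13.7% were, edgeR called 0 of this list, 0 had an unadjusted p under 0.05 and DESeq2 called 0.

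Among 15 hypoxia response genes, 4 rose and 1 fell in PGK at days 27 to 30, and 2 rose in E14, or 5 and 2 of 15 called against 25.1% and 13.7% of all genes, so the E14 share called was close to that of all genes. The list medians were 0.27 in PGK and 1.05 in E14, against -0.06 and 0.19 over all genes. Bnip3, a mitochondrial autophagy receptor, rose by 3.23 in PGK (SE 0.71, edgeR adjusted p = 0.00866) and 2.99 in E14 (SE 0.61, edgeR adjusted p = 0.011), and the oxygen sensor Egln1 by 1.67 (SE 0.36, edgeR adjusted p = 0.00807) and 2.50 (SE 0.59, edgeR adjusted p = 0.0202). In PGK the related sensor Egln3 rose by 3.11 (SE 0.74, edgeR adjusted p = 0.0129) and the histone demethylase Kdm3a fell by 1.56 (SE 0.38, edgeR adjusted p = 0.0137). The summed level of the list was 729 and 876 CPM at day 0 and 1063 and 663 at days 27 to 30 in PGK, and 838 and 806 CPM and 918 and 1719 CPM in E14. Its highest value, 2227 CPM, was in E14 diff2 at day 10, the library in which Slc2a1 was highest, and 1093 CPM of it came from Ddit4, and the part of this list in the transporter levels was not tested.

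Of 9 regulators tested, 4 rose and 1 fell in each line at days 27 to 30, against 25.1% and 13.7% of all genes called. The orphan receptor Esrrb, a naive pluripotency factor, fell by 8.12 in PGK (SE 0.64, edgeR adjusted p = 3.6e-05) and fell by 7.93 in E14 (SE 0.72, edgeR adjusted p = 0.000227). Esrrb is also among the naive markers summed above, so its fall is not separate from theirs. The RNA-binding Lin28a rose by 6.13 (SE 0.33, edgeR adjusted p = 6.9e-06) and 3.75 (SE 0.47, edgeR adjusted p = 0.000829), and its relative Lin28b by 4.02 (SE 0.36, edgeR adjusted p = 7.01e-05) and 3.58 (SE 0.46, edgeR adjusted p = 0.000978). The transcription factor Myc rose by 5.16 (SE 0.54, edgeR adjusted p = 0.000152) and 5.79 (SE 0.73, edgeR adjusted p = 0.000929).

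The order of the members per length shifted between day 0 and the last stage. In PGK at day 0 it ran from Aldoa and Slc2a3 (263 ± 26.8 CPM per kilobase) through Ldhb (116 ± 18.7) and Hk2 (55.6 ± 0.729) to Slc2a1 (43.3 ± 13.2), Pfkp (32.7 ± 13), Pfkm (30.7 ± 12.4), Hk1 (21.8 ± 8.64) and Pfkl (18.7 ± 13.9), with Eno1 last. Neighbours from Slc2a1 down to Pfkl overlapped in their libraries. At days 27 to 30 Slc2a1 ranked 3 at 118 ± 28.5 CPM per kilobase and Pfkl 4 at 51.4 ± 2.3, both apart from their neighbours, while Ldhb (32.5 ± 6.56) ranked 6, overlapping Hk2, and Pfkp (2.88 ± 1.68) overlapped Eno1. The E14 order at that stage was the same, with Slc2a3 and Slc2a1 overlapping there.

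Across the 10 group means of log2 CPM, which share libraries and scaling, Pfkp went with Hk1 (Pearson r 0.83) and Ldhb (0.87) and against Pfkl (-0.80), and Pfkl went with Ldha (0.94) and Pkm (0.95). Slc2a3 was little related to Ldhb (0.27) or Pfkl (-0.13). Among 10538 genes of at least 5 CPM, the most alike were Tmem41b to Hk1 (0.986), Creld1 to Hk2 (0.943), Hif3a to Pfkl (0.989), Saal1 to Pfkm (0.899), Tm7sf3 to Pfkp (0.985), Rps18 to Aldoa (0.956), Tdp2 to Eno1 (0.940), Tpst2 to Ldhb (0.992), Lyrm2 to Slc2a1 (0.965) and Txnip to Slc2a3 (0.969). Pdha1 was second to Pfkp (0.978). These are descriptions over 10 points.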

How the data were processed

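Polyadenylated RNA of 20 libraries was analysed from 3 kinds of table per line. The deposited raw tables hold read counts per gene; the deposited normalised tables hold a signal that, checked against the counts, is the counts divided by 1 constant per library within a relative spread of 1.4e-09; the deposited transformed tables hold log2 values after variance stabilisation by the authors, per the file headers. Per the submitters' processing notes, CASAVA 1.8.2 and GRCm38 (mm10) were used, and Cuffdiff and DESeq2 are named, with aligner, annotation and use of strand not given in the sources used here.

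Tests used edgeR 4.0.16 in R 4.3.3 on raw counts of all genes: TMM factors, filterByExpr with a minimum count of 10, robust quasi-likelihood fits, Benjamini-Hochberg adjustment over all genes and a threshold of 0.05. Fits of 10 libraries served each line (5 residual degrees of freedom; 15284 genes tested in PGK, 14501 in E14) and a fit of 20 libraries the comparisons between lines (10 degrees of freedom; 15732 genes). The fits were tested on simulated data, and a missed call does not show that a gene stayed level. CPM is counts over the library total times 1000000, and CPM per kilobase divides by the union of GENCODE M21 exons; for Aldoa, a name with 2 gene entries, the first was used (chr7:126795234-126800751). Exact permutation tests used scipy 1.17.1.

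The members, gene lists and tests were chosen with earlier results of these data known. All 10 members are named, with up to 4 called genes per list and line by smallest adjusted p at days 27 to 30, their fixed pathway partners, and the 1 or 2 genes most alike over the group means. Gapdh was named after its values were seen, and some listed genes are not reported here.

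Same-numbered libraries come from 1 experiment per the labels, which pairs them. The differences diff2 minus diff3 at day 0 correlated with those of later stages at 0.41, 0.45, -0.11 and 0.05 in PGK and 0.18, 0.14, -0.01 and -0.05 in E14. Alternatives were RLE factors, no filter, DESeq2 1.42.0, a replicate block, a term for the title code, limma 3.58.1 on the log2 values, a joint fit, each library left out, and, added after seeing the data, the coded or both shallow libraries left out. Replicates correlated at 0.906 to 0.991 across genes.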

Additional observations from a re-analysis of the deposited data

Results flagged for a closer look

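The log2 ratio of Hk2 to Hk1 at days 27 to 30 was 1.54 in the PGK diff3 library, far from the other 3 of the 4 libraries of both lines at that stage, which lay at 1.96, 2.00 and 2.02. Chance gives such a gap in about 1 in 20 groups, and 10 groups of 4 libraries were looked at.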

How the results depend on the processing

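Leaving out the coded or both shallow libraries was chosen after seeing the data. A setting can also change the number of all genes called, so the member counts below do not by themselves set the members apart. In E14, DESeq2 called 2856 genes at day 4 and 3597 at days 27 to 30 against day 0, where edgeR called 1386 and 1990. Between the lines at day 4, DESeq2 called 235 genes and edgeR 26. In the differences between lines of the change, DESeq2 called 204 and 107 genes and edgeR 12 and 8. The number of members called changed as follows. PGK day 10 against day 4 gave 0 in the joint fit of 20 libraries, 2 with a term for the code, 2 without the coded libraries and 0 to 2 with 1 library left out. PGK days 27 to 30 against day 0 gave 2 without the low-count filter, 7 without the coded libraries and 2 to 3 with 1 library left out. In E14, DESeq2 gave 5 at day 4 and 5 at days 27 to 30, and leaving out the coded libraries 5 at days 27 to 30 and 1 from day 10 to days 19 to 23. PGK against E14 gave 0 at day 0 without both shallow libraries and 0 to 1 with 1 library left out, and at day 4 it gave 1 with DESeq2 and 2 without the coded libraries. The difference between lines of the change to day 4 gave 1 with DESeq2, 1 with a term for the code, 3 without the coded libraries and 0 to 1 with 1 library left out, and that to days 27 to 30 gave 1 with DESeq2 and 1 without the coded libraries. Signs turned for members near 0. Aldoa in PGK was 0.24 and 0.23 at days 27 to 30 with the code term and without the coded libraries and -0.29 to 0.23 with 1 library left out, and -0.39 to 0.11 at day 4. In E14 at day 4 it was -0.08 without both shallow libraries and -0.08 to 0.56 with 1 left out. Eno1 in PGK was 1.01 at days 27 to 30 with the replicate block and -9.54 to 1.21 with 1 library left out, and -2.55 to 2.82 at day 4. Slc2a3 in E14 at days 27 to 30 was -0.71 to 0.13 with 1 library left out. The replicate block, which pairs the experiments, took Pfkl in E14 past the threshold (2.32, edgeR adjusted p = 0.0293, at day 4) and changed no other member's call. By line, Slc2a3 to Slc2a1 changed by -1.97 (PGK) and -1.02 (E14), and Ldhb to Ldha by -3.75 and -6.05. Exchanging libraries within pairs (replicate block) or within lines, also added, left the ratio changes at 1.04, -5.30, -2.50, -1.49 and -4.90 with exact p = 0.125 and 0.0556. With 2 libraries per group and 1 shallow library at days 0 and 4 in E14, moderate changes could be missed. The causes of these changes were not tested.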
